A study of Mus musculus with 21 samples.

Results

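The genes described here encode the tRNAs for lysine in mouse, which fall into the isoacceptors LysCTT and LysTTT, named for the anticodon in the DNA sense. All tRNA genes whose name ends in LysCTT or LysTTT were taken by name, though with earlier results of these data known. They were 65 of the 3283 predicted tRNA genes with Pol III ChIP-seq counts (40 LysCTT and 25 LysTTT) and 21 of the 1143 genes with tRNA-seq counts (11 LysCTT and 10 LysTTT). The study's list of transcribed tRNA genes, which rests on its own Pol III ChIP-seq and RNA sequencing, held 8 LysCTT and 8 LysTTT genes of 249. The RNA bisulphite data were read at these 16 loci, where 253 of the 302 cytosines were listed in at least 1 library.

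The tissue was total back skin of male mice at postnatal day 25, when hair follicles enter the growth phase (anagen), on a C57Bl6/J CBA F1 background. NSun2 -/- mice carry a gene trap in NSun2 (gene trap clone D014D11) and were compared with WT mice from the same breedings, without any treatment of either group. RNA bisulphite sequencing and tRNA-seq had 4 libraries per genotype, which the labels call independent biological replicates. Pol III ChIP-seq had 2 libraries from WT and 1 from NSun2 -/- skin, with 1 input library for each, all from the pooled skin of 3 mice.

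A tRNA carries an amino acid to the ribosome and reads a codon with the 3 bases of its anticodon, at positions 34 to 36. LysCTT reads the lysine codon AAG and LysTTT the codon AAA. NSun2 is an RNA methyltransferase that places a methyl group on carbon 5 of cytosines (m5C) where the variable loop meets the TΨC arm, at positions 48 and 49. Bisulphite turns unmethylated cytosines into uracil, so that a cytosine still read as C is either methylated or escaped conversion. Cleavage in the anticodon loop leaves a 5′ tRNA fragment.

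The sequences are shown because the isoacceptors differ at the positions NSun2 modifies. All 16 transcribed genes are 73 nt long, so that positions counted from 1 at the 5′ end follow tRNA numbering. Capitals mark the anticodon and the bases at positions 48 and 49 that are cytosines, or the T at position 48 in the last gene.
LysCTT common sequence: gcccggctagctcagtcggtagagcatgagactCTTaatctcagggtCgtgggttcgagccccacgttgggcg
LysCTT chr12.trna790 and chr9.trna1035: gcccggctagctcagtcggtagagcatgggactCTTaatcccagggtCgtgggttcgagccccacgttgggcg
LysTTT common sequence: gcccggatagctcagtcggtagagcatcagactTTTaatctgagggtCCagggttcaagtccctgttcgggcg
LysTTT chr13.trna83: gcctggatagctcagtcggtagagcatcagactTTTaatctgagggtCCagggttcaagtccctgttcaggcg
LysTTT chr13.trna89: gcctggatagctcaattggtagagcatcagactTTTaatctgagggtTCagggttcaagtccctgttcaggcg
The common sequences were each shared by 6 genes and differed at 12 of 73 positions (83.6% identity). From LysCTT to LysTTT the differences were C7A, G28C, C34T, C42G, G49C, T50A, G57A, C60T, A64T, C65G, G66T and T68C. LysCTT genes thus hold a cytosine at position 48 followed by G, whereas LysTTT genes hold cytosines at both 48 and 49. The 2 variant LysCTT genes differ from the common sequence by A29G and T41C, which pair with each other in the anticodon stem. Among LysTTT genes, chr13.trna83 carries C4T and G69A, and chr13.trna89 carries C4T, G15A, C17T, C48T and G69A and so has no cytosine at position 48.

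In mm9 the LysCTT genes with the common sequence lie at chr11:48647385-48647457 (minus strand, chr11.trna2023), chr13:23528209-23528281 (plus, chr13.trna103), chr17:23670929-23671001 (plus, chr17.trna82), chr17:23684327-23684399 (plus, chr17.trna84), chr3:96232158-96232230 (plus, chr3.trna292) and chr3:96303435-96303507 (minus, chr3.trna748). The variants lie at chr12:72070107-72070179 (minus, chr12.trna790) and chr9:90021347-90021419 (minus, chr9.trna1035). The LysTTT genes with the common sequence lie at chr1:134930904-134930976 (minus, chr1.trna1184), chr1:134930539-134930611 (plus, chr1.trna485), chr11:68938678-68938750 (minus, chr11.trna1816), chr13:21259944-21260016 (minus, chr13.trna1000), chr19:12080529-12080601 (plus, chr19.trna107) and chr19:12084186-12084258 (minus, chr19.trna639). The remaining LysTTT genes are chr13.trna83 at chr13:21999809-21999881 (plus) and chr13.trna89 at chr13:22063657-22063729 (plus). Of the 16 genes, 15 are intergenic and chr11.trna2023 lies in an intron of Trim7, on the strand opposite to that gene.

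The bisulphite libraries stood apart in depth, with 110324 to 665049 listed cytosines each. Over all listed cytosines 16.9% to 20.1% of reads were unconverted in WT libraries, 16.8% in the second NSun2 -/- library and 8.32% to 9.27% in the other NSun2 -/- libraries. Each library lists its own set of cytosines, so these shares are not rates over the same sites. The part of this in the values below was not tested. At LysCTT the third NSun2 -/- library was the most completely converted, whereas the lowest share over all listed cytosines was in the fourth (8.32%). NSun2 itself had between 23 and 48 listed cytosines per WT library and 0 in every NSun2 -/- library. Skin was present by its markers, with 752 to 1021 listed cytosines in the epidermal keratin genes of WT libraries and 732 to 1357 in NSun2 -/- libraries. Skeletal muscle genes (Acta1, Ckm, Myh4) had 791 to 1407 in WT and 1391 to 1902 in NSun2 -/- libraries, and the part of this in the results was not tested. In bulk skin, fewer cells of a type and less RNA per cell cannot be told apart.

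Cytosine 48 of LysCTT was almost fully protected from conversion in WT skin and much less so in NSun2 -/- skin. Averaged over the 8 LysCTT genes, the share of unconverted reads at position 48 was 89.6%, 88.99%, 89.99% and 90.5% in the WT libraries and 61.2%, 64.8%, 28.8% and 56.4% in the NSun2 -/- libraries. Every NSun2 -/- library lay below every WT library, and the third was the lowest by far. The means were 89.8% ± 0.649 (SD, n = 4) and 52.8% ± 16.4 (SD, n = 4), a difference of −36.9 percentage points. With an exact two-sided permutation test this gave p = 0.0286, the smallest that 4 against 4 libraries can give, and 0.0857 after Benjamini-Hochberg adjustment over 9 exact tests. These 9 include comparisons made after the values had been seen. Exact tests under alternative settings are not among them, and their p-values are unadjusted. Without the third NSun2 -/- library the difference was −28.9 points.

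**Figure D1:**
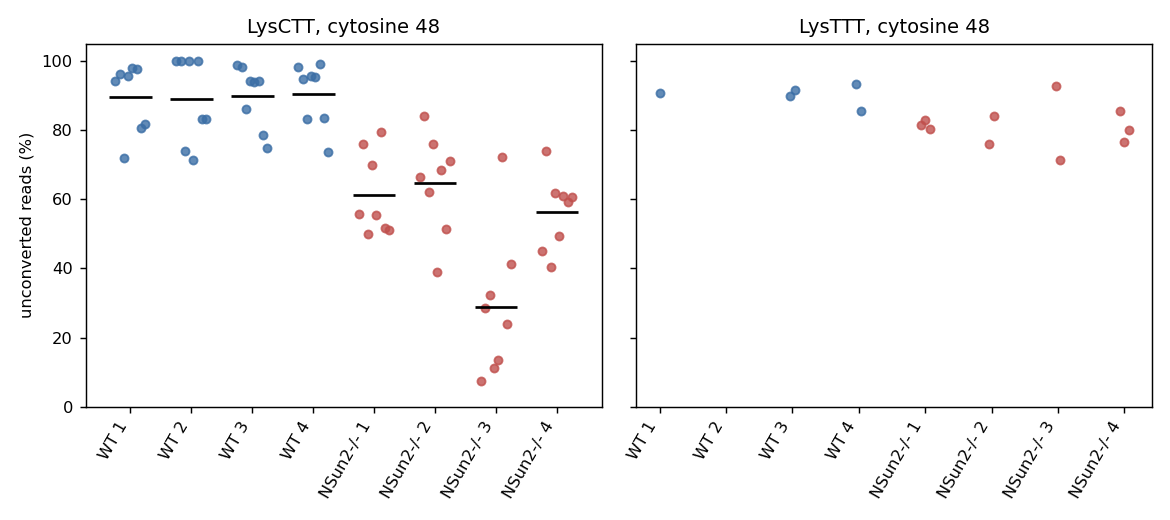
Percent of unconverted reads at cytosine 48 in each bisulphite library. Each point is 1 gene and the black line is the mean over the 8 LysCTT genes; for LysTTT only listed genes appear. LysCTT means are between 88.99% and 90.5% in WT and between 28.8% and 64.8% in NSun2 -/- libraries, and WT library 2 lists no LysTTT gene.

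Lower values of C48 were seen at each LysCTT gene. At chr11.trna2023, the LysCTT gene with the most Pol III, the share at C48 was 94.2%, 100%, 99.03% and 98.5% in WT and 55.9%, 66.4%, 7.45% and 45.0% in NSun2 -/- skin. The difference was −54.2 points (edgeR quasi-likelihood test with Benjamini-Hochberg adjustment over 122736 cytosines, adjusted p = 1.57e-09). Reads at this cytosine numbered between 110 and 698 per library. At chr3.trna292, 97.6%, 100%, 94.3% and 99.2% in WT stood against 79.7%, 68.4%, 72.2% and 60.9%, a difference of −27.5 points (adjusted p = 0.00587). At this gene the third NSun2 -/- library was not the lowest.

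Of the 177 Lys cytosines tested, 5 were called lower in NSun2 -/- skin, and all 5 were C48 of LysCTT genes. Over all cytosines tested, 181 were called lower (0.147%) and 142 higher (0.116%). Besides the genes above, the calls were chr17.trna84 (−50.5 points, adjusted p = 0.00161), chr17.trna82 (−41.6 points, adjusted p = 0.000398) and chr12.trna790 (−31.7 points, adjusted p = 0.00267), all by the same edgeR test. At 3 LysCTT genes C48 did not pass, with −32.6 points at chr13.trna103 (adjusted p = 0.68), −34.9 at chr3.trna748 (adjusted p = 0.327) and −22.3 at chr9.trna1035 (adjusted p = 1). These genes also had the lower WT shares, between 72% and 86.3% for the first, 78.7% and 83.5% for the second, and 73.6% and 83.3% for the last. At all 8 genes each NSun2 -/- library was below each WT library, a pattern shown by 0.725% of all cytosines tested. No other LysCTT cytosine showed it. The 6 genes with the common sequence produce the same mature RNA, so that their values depend on how reads were placed and are not 6 independent measurements. The same holds for chr12.trna790 and chr9.trna1035, which share the variant sequence. The number of calls was 2 with limma, 2 with a coverage minimum of 30 reads (chr11.trna2023 and chr17.trna84), and 3 without WT library 1.

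Away from position 48, most LysCTT cytosines had a higher mean in NSun2 -/- skin, and none passed the test. From position 2 to 32 the mean unconverted share was 6.32%, 7.81%, 7.70% and 13.9% in WT, and 20.2%, 30.0%, 1.41% and 18.0% in NSun2 -/- libraries. All NSun2 -/- libraries but the third were thus above all WT libraries, and the third was below them. At positions 34 to 42 the values were 19.8% to 30.8% in WT and 12.9% to 50.0% in NSun2 -/- skin, and at positions 56 to 72 they were 39.7% to 55.8% and 34.8% to 70.3%. The unconverted share was higher toward the 3′ end in each library, from at most 13.8% at position 2 to at least 43.1% at position 72. Of the 162 LysCTT cytosines, 152 had a higher mean in NSun2 -/- skin, and none was called higher. Without the third NSun2 -/- library 6 Lys cytosines were called higher, as were 519 of 82884 cytosines in all.

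**Figure D2:**
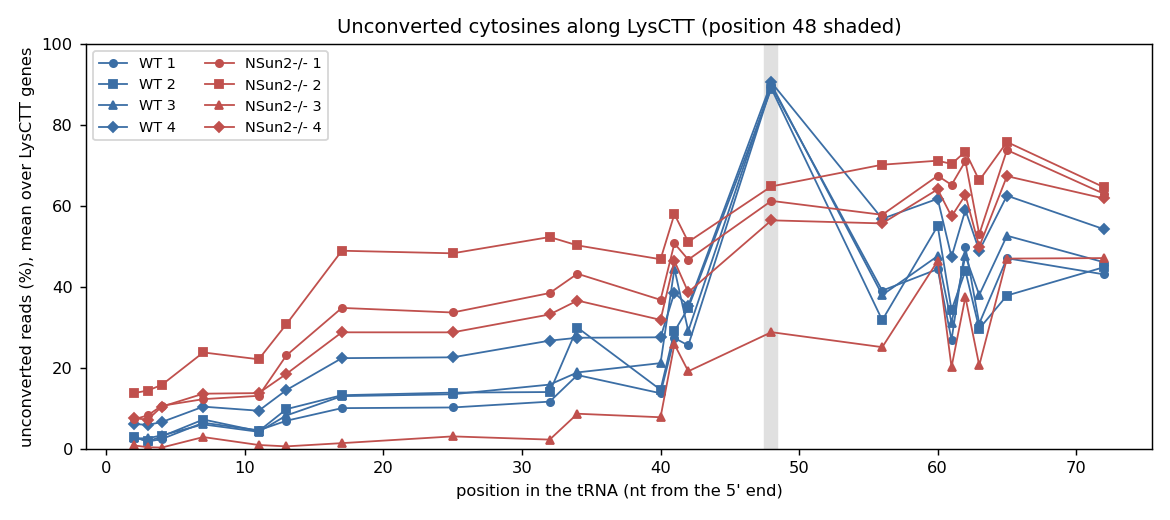
Mean percent of unconverted reads over the LysCTT genes at each cytosine, by position in the tRNA (nt from the 5′ end), with 1 line per library (WT blue, NSun2 -/- red). WT libraries peak at position 48 (88.99% to 90.5%), whereas NSun2 -/- libraries pass through 28.8% to 64.8% there without a peak of this height, and the third NSun2 -/- library has the lowest values up to position 42.

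Since unconverted cytosines were this common, C48 was also set against its nearest cytosines, 40, 42 and 56, a correction chosen after the values had been seen. C48 exceeded them by 63.4, 61.9, 60.6 and 50.6 points in WT libraries and by 14.1, 8.79, 11.5 and 14.4 points in NSun2 -/- libraries. The third NSun2 -/- library no longer stood apart on this scale, and the difference was −47.0 points. Subtracting the cytosines 5′ of the anticodon gave −45.4 points. With C56 alone subtracted, also chosen after the values had been seen, the WT libraries were at 50.5, 57.2, 52.0 and 33.7 points. The NSun2 -/- libraries were then at 3.44, −5.35, 3.70 and 0.758 points, a difference of −47.7 points.

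LysTTT was covered far less. At position 48 the LysCTT genes had 474 to 1725 reads in WT and 1062 to 3445 in NSun2 -/- libraries, with all 8 genes listed in every library. Of the 8 LysTTT genes, 0 to 2 were listed at position 48 in a WT library (at most 29 reads in all) and 2 or 3 in an NSun2 -/- library (35 to 103 reads). The files list cytosines from 10 reads, so an unlisted gene has no value here. Only chr19.trna107 passed the coverage filter, at 15 cytosines.

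C48 of chr19.trna107 was read as C in most reads of both genotypes. In WT it was 90.9%, 91.7% and 85.7% in libraries 1, 3 and 4, from 11 to 14 reads, and not listed in library 2. In NSun2 -/- skin it was 80.5%, 84.2%, 71.4% and 80.0%, from 19 to 41 reads. All NSun2 -/- values were below all WT values, by a margin of less than 2 points. Counting error was wide, with 95% exact binomial intervals of 58.7% to 99.8% for WT library 1 and 47.8% to 88.7% for the third NSun2 -/- library. These intervals cover counting error only, as the reads carry no molecular identifiers. The mean difference was −10.4 points (exact permutation test, p = 0.0571, adjusted p = 0.129, n = 3 and 4), and the edgeR test did not call it (adjusted p = 1).

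Other LysTTT genes had single values. C48 of chr13.trna1000 was 90% and 93.3% in WT libraries 3 and 4 and 82.9%, 76.0%, 92.9% and 76.7% in NSun2 -/- libraries, so that the groups overlapped. Its C49 was 100% and 93.8% in WT and 72.9%, 74.1%, 90% and 71.7% in NSun2 -/- skin, all below WT. C49 of chr19.trna107 was listed only in NSun2 -/- libraries, at 81.6%, 68.4% and 70.6%, and chr11.trna1816 only in libraries 1 and 4, at 81.5% and 85.7% for C48 and 80.0% and 63.6% for C49. At chr13.trna89, which lacks C48, C49 was unconverted in 0 of 13 reads of WT library 4, with an exact upper limit of 24.7%, and in 1 of 10 reads of the first NSun2 -/- library. With so few reads, no order between these loci is given.

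The question whether both isoacceptors lost methylation alike was tested by the difference between them within each library. C48 of LysCTT minus C48 of LysTTT was −1.36, −1.67 and 4.80 points in WT libraries 1, 3 and 4, close to 0. In NSun2 -/- libraries it was −19.2, −19.4, −42.6 and −23.6 points. The means of 0.591 ± 3.65 (SD, n = 3) and −26.2 ± 11.1 (SD, n = 4) differed by −26.8 points (exact permutation test, p = 0.0286, the smallest possible, adjusted p = 0.0857), which did not pass the threshold of 0.05 after adjustment. LysTTT is represented here by 1 gene and 11 to 41 reads per library. With any listed LysTTT gene the difference was −27.9 points (p = 0.0571, exact permutation). With the nearest cytosines subtracted it was −35.9 points (p = 0.0571, exact permutation), but LysTTT has no C42 and its C40 was not listed in WT library 4, so the isoacceptors were corrected by unlike sets. With C56 alone subtracted from both, the difference was −26.4 points (p = 0.171, exact permutation), and NSun2 -/- library 1, at −7.23 points, lay among the WT values of −11.9, −14.7 and 10.5 points. LysTTT itself then differed by −18.4 points between the genotypes (p = 0.286, exact permutation). Both corrections were chosen after seeing the values.

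tRNA-seq gave 17352126 to 36749727 counts per library. Lysine tRNAs made up 2.08% to 3.28% (LysCTT) and 0.0931% to 0.161% (LysTTT) of them. The second NSun2 -/- library was the deepest and had the highest share of 5′ fragments among all tRNA counts, 90.1% against 71.6% to 82.3% in the others. Of LysCTT counts, 74.9% to 90.7% were 5′ fragments of 25 to 40 nt and 1.29% to 3.35% were mature tRNAs (CCA end, at least 90% of the gene). Of LysTTT counts, 22.9% to 50.8% were 5′ fragments and at most 0.361% mature. The counts of the main LysCTT sequences are all multiples of 7, split between chr13.trna103 and chr3.trna748 at 57.1% and 42.9%, whereas those of LysTTT are not multiples of any number above 1 and are split over 5 genes. Levels are therefore compared between genotypes only, not between isoacceptors or read classes.

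The most abundant 5′ fragments are printed to show where each tRNA ended, with position 34, the first anticodon base, in capitals.
LysCTT, ending at position 34: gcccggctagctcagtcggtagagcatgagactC
LysCTT, ending at position 33: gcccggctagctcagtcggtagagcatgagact
LysCTT, ending at position 32: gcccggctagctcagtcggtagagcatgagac
LysTTT, ending at position 32: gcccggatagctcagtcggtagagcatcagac
LysTTT, ending at position 33: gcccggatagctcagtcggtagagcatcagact
LysTTT, ending at position 34: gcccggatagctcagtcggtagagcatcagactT
LysTTT, ending at position 34 with T34G: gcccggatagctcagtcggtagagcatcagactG
The first LysCTT fragment made up 42.9% and the second 36.1% of all LysCTT 5′ fragment counts, and the first LysTTT fragment 55.9% of those of LysTTT. The LysCTT fragments ranked 4 and 5 were the matching molecules of the variant sequence, listed under chr12.trna790, ending at 33 and 34. The LysTTT fragment ranked 5 ended at 31.

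LysCTT fragments ended mainly at positions 33 and 34 in both genotypes, with more at 34 in each library. The share ending at 33 was 39.3% to 43.4% in WT and 38.6% to 43.2% in NSun2 -/- skin. The share ending at 34 was 42.3%, 51.6%, 46.1% and 49.6% in WT and 46.6%, 42.8%, 50.4% and 48.3% in NSun2 -/- skin, with overlap. LysTTT fragments ended mainly at 32, with 63.7%, 41.1%, 57.8% and 51.6% in WT and 53.9%, 66.9%, 57.7% and 58.6% in NSun2 -/- skin. LysTTT fragments ending at 34 were 15.9%, 33.2%, 20.4% and 25.2% in WT and 14.2%, 13.9%, 13.8% and 14.1% in NSun2 -/- skin, so that every WT library was higher. How many families separate in this way was not counted. This share includes the fragments with another base at position 34 described below, so the values there are not independent of it. The mean last position of LysTTT fragments was 32.7 ± 0.228 (SD, n = 4) for WT against 32.5 ± 0.0651 (SD, n = 4) for NSun2 -/- mice (exact permutation test, p = 0.114), and that of LysCTT 33.4 in both (p = 0.6, exact permutation).

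The amount of 5′ fragments was lower on average in NSun2 -/- skin for both isoacceptors, but within the spread between libraries. On a scale of counts per 1000000 (CPM) within 5′ fragments after TMM normalization, LysCTT was at 23710, 31863, 34249 and 31832 in WT and 23658, 26480, 24995 and 28392 in NSun2 -/- libraries. WT library 1 lay among the NSun2 -/- values. The log2 fold change was −0.23 (SE 0.20, edgeR adjusted p = 0.395). LysTTT was at 693, 724, 683 and 592 CPM in WT and 366, 810, 369 and 352 in NSun2 -/- libraries. All NSun2 -/- libraries but the second were below all WT libraries, and the second was above them. The log2 fold change was −0.50 (SE 0.31, edgeR adjusted p = 0.218). Neither isoacceptor was called, against 9 of 42 families called higher (21.4%) and 0 called lower (0%), and the fold changes of LysTTT and LysCTT ranked 9 and 13 from the lowest. For LysTTT the call depended on the second NSun2 -/- library, since without it the log2 fold change was −0.89 (edgeR adjusted p = 0.0132). DESeq2 also called it (−0.69, adjusted p = 0.0336), as did edgeR on fragments of 30 to 36 nt (−0.78, adjusted p = 0.0477). Of the 42 families, 4 were called lower without the second NSun2 -/- library, 9 by DESeq2 and 7 at 30 to 36 nt. Without mismatched reads LysTTT was at −0.36 (edgeR adjusted p = 0.435).

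**Figure D3:**
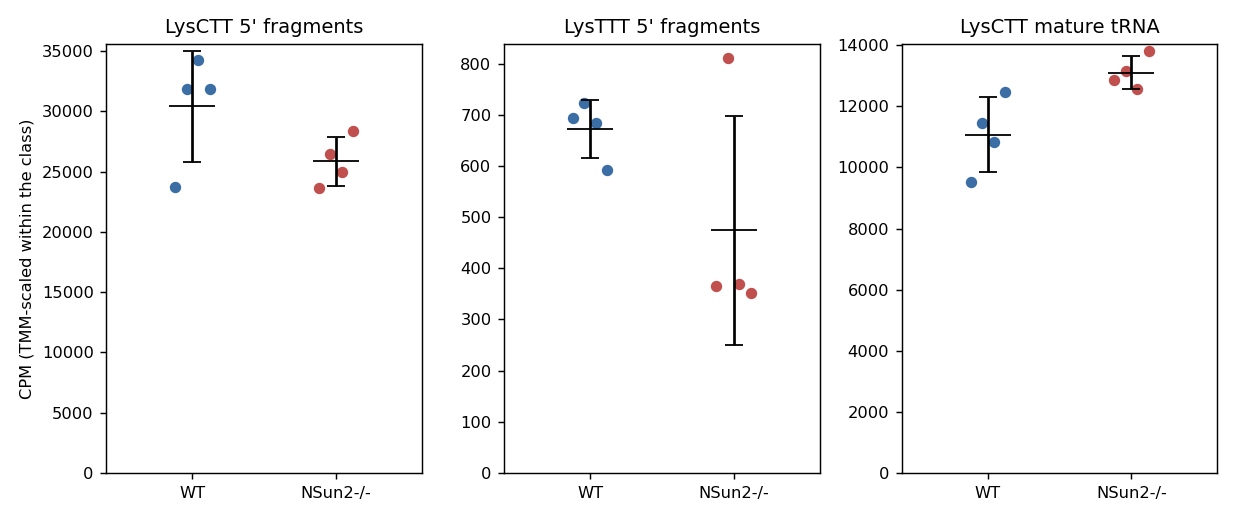
CPM, TMM-scaled within each read class, of 5′ fragments of LysCTT and LysTTT and of mature LysCTT. Points are libraries, and the bar and whiskers are the mean and SD of 4 libraries; groups overlap for both fragment classes, and mature LysCTT is between 9537 and 12476 in WT and between 12578 and 13828 in NSun2 -/- skin.

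Scaled to all tRNA counts instead, LysCTT was at 19394, 26728, 29247 and 29113 CPM in WT and 18698, 18918, 21105 and 18516 CPM in NSun2 -/- libraries, where the third NSun2 -/- library alone lay above the lowest WT library. The log2 fold changes on this scale were −0.44 for LysCTT (adjusted p = 0.0997) and −0.71 for LysTTT (adjusted p = 0.0688), both by edgeR. The median over all families moved by −0.19 between these scales.

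Per gene, 8 Lys genes passed the filter on low counts for 5′ fragments, and 0 were called by edgeR, also at an unadjusted p under 0.05. DESeq2 called 1 (chr12.trna790, −0.49, adjusted p = 0.0304), where 41 of 211 genes were called lower in all. Leaving out the second NSun2 -/- library gave 5 calls, the 5 LysTTT genes, where 24 of 203 genes were called lower in all. In the main edgeR test 38 of 202 genes were higher (18.8%) and 22 lower (10.9%). The log2 fold changes lay between −0.47 (chr13.trna1000) and −0.25 (chr3.trna748). The LysTTT values share the same reads, with log2 fold changes of −0.46 for chr1.trna1184, chr1.trna485 and chr19.trna107 and −0.40 for chr19.trna639, and chr13.trna103 (−0.25) shares its reads with chr3.trna748. Apart from the common LysCTT sequence stood chr12.trna790, with log2 fold change −0.33 (SE 0.24, edgeR adjusted p = 0.316). It has the same sequence as chr9.trna1035, so this value belongs to the variant sequence rather than to a single gene.

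The families fixed for comparison were AspGTC, GluCTC and GluTTC, tRNAs of aspartate and glutamate. Their 5′ fragments had log2 fold changes of −0.61, 0.38 and 0.56, with edgeR adjusted p of 0.226, 0.196 and 0.117, so that none was called. The isoacceptors were compared within libraries by the log2 ratio of LysCTT to LysTTT 5′ fragment counts, which does not depend on scaling. It was 5.10, 5.46, 5.65 and 5.75 in WT and 6.01, 5.03, 6.08 and 6.34 in NSun2 -/- skin, a difference of 0.38 (exact permutation test, p = 0.314, adjusted p = 0.354). The second NSun2 -/- library was below all WT libraries and the others above them, and without the second the difference was 0.65 (p = 0.0286, exact permutation). Across the 8 libraries, the 5′ fragment levels of LysCTT were most like those of ProCGG (Pearson r = 0.84), GlyTCC (0.79) and GlyCCC (0.75) among 40 families. Those of LysTTT were most like LeuTAG (0.85), GlnTTG (0.82) and GlyTCC (0.82), and LysCTT and LysTTT correlated at 0.57. These coefficients are descriptions, since the libraries share depth and composition.

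In LysTTT fragments that end at position 34, and only in these, the base read at 34 differed between the genotypes, without passing the test after adjustment. The wobble uridine of this tRNA is known to be heavily modified, and whether this bears on the base read was not tested. The T34G fragment printed above had 11.5, 110, 45.4 and 45.4 CPM of all tRNA counts in WT and 1.96, 3.67, 2.41 and 6.04 CPM in NSun2 -/- skin, without overlap. How many other sequences separate in this way was not counted. The fragment with the genomic T at its end had 69.8, 49.3, 54.3 and 64.4 CPM in WT and 38.6, 73.9, 39.2 and 25.5 CPM in NSun2 -/- skin, with overlap. Among LysTTT fragments ending at 34, a base other than T was read in 20.2%, 75.04%, 53.1% and 52.1% in WT and in 5.27%, 6.45%, 7.16% and 19.4% in NSun2 -/- libraries. The lowest WT library and the highest NSun2 -/- library were less than 1 point apart. The difference of the means was −40.5 points (exact permutation test, p = 0.0286, the smallest possible, adjusted p = 0.0857), a comparison made after the values had been seen. It was the largest fall among the 17 families that could be compared, the next being ValAAC with −0.98 points. The mean WT share was 50.1% in LysTTT, 92.6% in ValAAC and 19.8% in GlyGCC. It was at most 5.18% (AsnGTT) in the remaining families, which left them little room to fall, so this rank is a description only. In LysTTT reads that ran past position 34 the share was 0% in every library (158 to 554 counts), and in LysCTT fragments ending at 34 it was 0.105% to 0.424%.

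**Figure D4:**
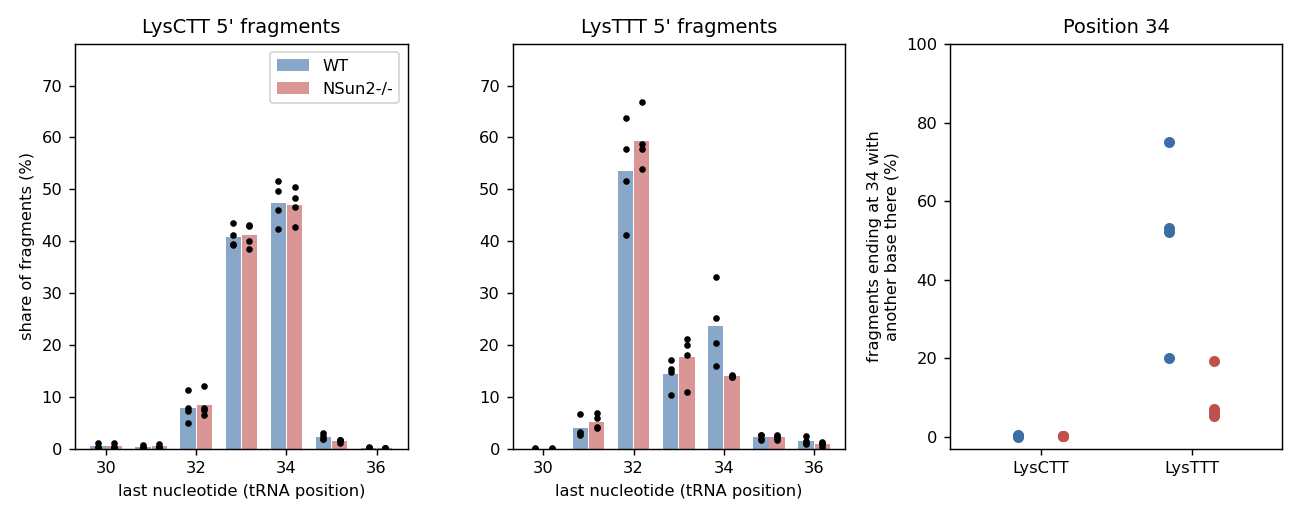
Left and middle, share of 5′ fragments by last nucleotide for LysCTT and LysTTT (bars, mean of 4 libraries; points, libraries). Right, share of fragments ending at position 34 that carry another base there (WT blue, NSun2 -/- red); for LysTTT it is 20.2% to 75.04% in WT and 5.27% to 19.4% in NSun2 -/- skin, and for LysCTT under 0.5% in both.

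Mature LysCTT was higher in each NSun2 -/- library than in each WT library on the TMM scale, without passing the test. Its levels were 9537, 11467, 10835 and 12476 CPM in WT and 12859, 13163, 12578 and 13828 CPM in NSun2 -/- skin, and the log2 fold change was 0.24 (SE 0.19, edgeR adjusted p = 0.352). Such a separation was seen in 11.8% of the 17 families, and 0 of them were called in either direction. Scaled to all tRNA counts the sign turned, to −0.51 (edgeR adjusted p = 0.329), as the median of all families moved by −0.75. Mature LysTTT was rare, with 11.0, 31.4, 14.7 and 82.4 CPM in WT and 65.0, 9.31, 11.6 and 43.4 CPM in NSun2 -/- skin, and its log2 fold change of −0.10 (SE 0.93, edgeR adjusted p = 0.970) had no stable sign.

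Among genes, chr12.trna790 was the only Lys gene called in the mature class, where 1 of 45 genes was called higher (2.22%) and 2 lower (4.44%). As chr9.trna1035 has the same sequence, mature reads credited to chr12.trna790 cannot be told apart from those of chr9.trna1035. The levels listed for chr12.trna790 were 5467, 5990, 5339 and 5919 CPM in WT and 9792, 9818, 9779 and 8089 CPM in NSun2 -/- skin. The log2 fold change was 0.72 (SE 0.18, edgeR adjusted p = 0.0350). For chr12.trna790 all NSun2 -/- libraries were above all WT libraries, as at 4.44% of the 45 genes. The call rested on the scale and on the number of libraries. It had a log2 fold change of −0.20 (adjusted p = 0.661) when scaled to all tRNA counts, and it was lost without any WT library and without NSun2 -/- library 1, 2 or 3 (adjusted p between 0.0741 and 0.338, edgeR), while the log2 fold change stayed between 0.65 and 0.78 with any 1 library left out. The other genes tested were chr13.trna103 (−0.06) and chr13.trna1000 (0.05), neither called.

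The mature reads show a further position at which the read differed from the gene, and are printed for that reason, with position 58 and the anticodon in capitals.
LysCTT mature, chr12.trna790 with A58T: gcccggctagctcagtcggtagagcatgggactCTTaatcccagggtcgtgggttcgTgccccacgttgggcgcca
LysCTT mature, chr12.trna790 with A58G: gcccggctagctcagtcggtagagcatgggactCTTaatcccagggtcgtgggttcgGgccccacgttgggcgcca
LysCTT mature, common sequence with A58T: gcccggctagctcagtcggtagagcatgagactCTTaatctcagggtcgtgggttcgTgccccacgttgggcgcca
LysTTT mature with A58G: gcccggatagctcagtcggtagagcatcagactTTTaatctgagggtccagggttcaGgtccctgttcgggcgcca
The adenosine at position 58 is methylated in many tRNAs. In mature LysCTT reads the genomic A was read in 3.73% to 6.35% of counts, T in 58.4% to 67.2% and G in 25.3% to 35.6%, and the genotypes overlapped for each base. The mismatch was thus the rule in both genotypes. In the short 3′ fragments of LysTTT, A was read in 74.6% to 86.7% and C in the rest.

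The CCA-ended 3′ fragments of LysTTT were few, and their commonest forms began at the variable loop.
LysTTT, from position 50: agggttcaagtccctgttcgggcgcca
LysTTT, from position 49: cagggttcaagtccctgttcgggcgcca
LysTTT, from position 48: ccagggttcaagtccctgttcgggcgcca
The first had 15.1, 7.20, 1.73 and 1.61 CPM of all tRNA counts in WT and 7.35, 0.789, 1.90 and 3.93 CPM in NSun2 -/- skin. LysTTT 3′ fragments as a class had a log2 fold change of 0.61 on the TMM scale (SE 0.40, edgeR adjusted p = 0.307), and −0.81 (adjusted p = 0.246) when scaled to all tRNA counts, among 37 families of which 4 were called higher (10.8%) and 3 lower (8.11%). LysCTT had a single 3′ fragment sequence within this window, seen in WT library 3 only.

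Other reads bore on processing. A LysCTT read from position 1 to 41 had 499 to 671 CPM of all tRNA counts in WT and 172 to 713 CPM in NSun2 -/- skin. Reads of LysTTT that began up to 4 nt before the gene, and so kept part of the leader that is removed when a tRNA matures, had 108, 176, 143 and 133 CPM in WT and 121, 49.2, 87.3 and 110 CPM in NSun2 -/- skin (exact permutation test, p = 0.0857, adjusted p = 0.154, chosen after the values had been seen). They were 4.00% to 13.4% of LysTTT counts. Reads of LysCTT with a leader were at most 0.0570% of its counts.

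Pol III ChIP-seq, with an antibody against the subunit POLR3A, gave the NSun2 -/- library values between those of the WT libraries for both isoacceptors when scaled to all reads in tRNA genes. Reads were scaled to 1000000 reads in tRNA genes (RPM), with totals of 36866 and 63136 counts in WT and 95112 in NSun2 -/- skin. Binding was called where each WT library held 10 reads or more and their RPM reached 2-fold that of the WT input. Of the 65 Lys genes 14 were bound, 7 of each isoacceptor, and 226 of 3283 genes were bound in all. All 14 were in the study's list of transcribed genes. The study drew that list from its own Pol III ChIP-seq in skin, so this overlap is not independent. The bound LysCTT genes summed to 18364 RPM (95% exact Poisson interval 17006 to 19801) and 14714 RPM (13783 to 15692) in the WT libraries and to 14888 RPM (14122 to 15684) in the NSun2 -/- library. The bound LysTTT genes summed to 16465 RPM (15181 to 17829) and 12529 RPM (11671 to 13433) in WT and 12943 RPM (12230 to 13686) in NSun2 -/- skin. Inputs gave 1005 and 1519 RPM for LysCTT and 942 and 1381 RPM for LysTTT in WT and NSun2 -/- skin. These intervals cover counting error only, and with 1 NSun2 -/- library no test was made. The order depended on the scale. Relative to the counts of all bound genes, the NSun2 -/- library was below both WT libraries, and the log2 ratio to mean WT went from −0.15 to −0.38 for LysCTT and from −0.16 to −0.39 for LysTTT. The title of WT library 1, which set the upper end of the WT range, names PolII although its antibody label is POLR3A, and the titles of the NSun2 -/- library and its input say KD although their genotype label is NSun2 -/-. Against WT library 2 alone the log2 ratio was 0.017 for LysCTT and 0.047 for LysTTT.

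The occupied genes were unequal. The 3 LysCTT genes with the most Pol III were chr11.trna2023 (4693 and 3310 RPM in WT, 3753 in NSun2 -/- skin), chr17.trna84 (4557 and 2677, then 2797) and chr3.trna748 (3798 and 3342, then 3207). For LysTTT they were chr11.trna1816 (4991 and 3865, then 4121), chr19.trna639 (4394 and 2423, then 2355) and chr13.trna1000 (2360 and 1806, then 2082). The order within each isoacceptor is that of genes with identical sequence, whose reads can be told apart only by their flanks. The genes chr17.trna82 and chr13.trna89, although listed as transcribed, did not pass the rule for binding. chr17.trna82 had 434 and 808 RPM in WT against 691 RPM in the WT input, and chr13.trna89 had 8 and 18 reads in the WT libraries. The log2 ratio of NSun2 -/- to mean WT RPM was −0.15 for LysCTT and −0.16 for LysTTT, and was below 0 at 12 of the 14 genes. Over all bound genes 34.5% were below 0 and the median was 0.17. Between the 2 WT libraries the log2 ratio at the Lys genes ran from −0.86 to 0.59, a wider range than the −0.53 to 0.27 between the genotypes.

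**Figure D5:**
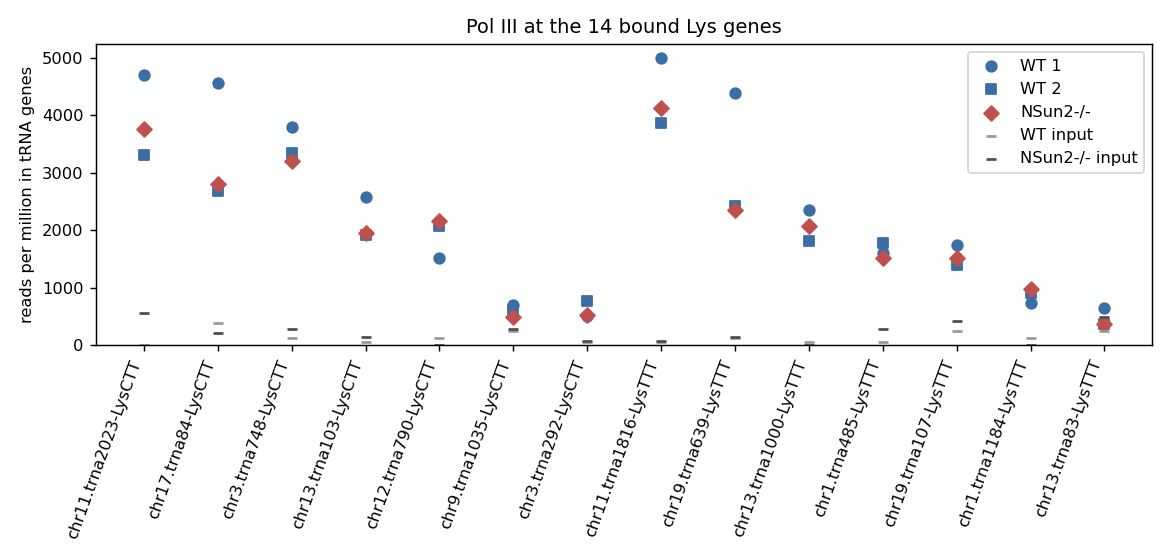
Pol III reads in RPM at the 14 bound Lys genes, for 2 WT libraries, 1 NSun2 -/- library and the inputs. The NSun2 -/- value lies within or near the range of the WT libraries, for example 3753 between 3310 and 4693 RPM at chr11.trna2023.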

How the data were processed

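Per the labels and the study's methods, the authors mapped bisulphite-converted reads with Bismark (0.7.6 in the submitters' processing notes) and deposited, for cytosines with at least 10 reads, the counts of reads with a C and with a T and the percent read as C, without normalization. Listed positions fell on cytosines of mm9, although the methods name another mouse build. The study's discarding of poorly converted reads works on single reads and could not be applied here. For tRNA-seq and Pol III ChIP-seq the authors aligned with Bowtie to mm9, shared multiply matching reads between genes, and deposited unscaled counts per gene and read sequence or per gene.

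Computed here: reads were placed on the study's transcribed genes with at most 4 mismatches. Fragments of 25 to 40 nt starting at the first nucleotide were 5′ fragments, and CCA-ended reads covering 90% or more of a gene were mature. Other CCA-ended reads of 25 to 40 nt were 3′ fragments. Cytosines needed 10 reads in 3 libraries per genotype. Counts were tested over all features with edgeR 4.0.16 (quasi-likelihood, Benjamini-Hochberg, threshold 0.05), in R 4.3.3, with DESeq2 1.42.0 and limma 3.58.1 as alternatives. TMM and filterByExpr were used for tRNA-seq only. Cytosines were filtered by coverage and needed a difference of at least 10 points. Their fit used a dispersion common to all cytosines, estimated from a random sample of them. Values per library were compared with exact two-sided permutation tests in Python 3.11.15 with scipy 1.17.1. Pol III ratios used a pseudocount of 1 RPM and were not tested. The procedures were also run on simulated data. For cytosines these held no shift in conversion shared by a whole library, so they do not test the calls under such a shift. Bisulphite depth at C48 of LysCTT was 474 to 3445 reads per library. Since counts of a sequence share common factors, no binomial interval is given for tRNA-seq. Samples were grouped by genotype as labelled. The members, the comparator families and the lists were chosen with earlier results of these data known. All Lys genes of the study's list are named, with the most abundant sequences and the genes with the most Pol III. Alternatives covered coverage, scaling, tool, filters, mismatches, fragment length, CCA, background correction, a replicate block and each library left out.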

Additional observations from a re-analysis of the deposited data

Results flagged for a closer look

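The change at C48 was −26.8 points between LysCTT and LysTTT, on 1 LysTTT gene with few reads (exact permutation test of the difference, p = 0.0286, the smallest possible with 3 and 4 libraries). It did not pass after adjustment over 9 tests (adjusted p = 0.0857), and was −26.4 points with C56 subtracted (p = 0.171, exact permutation). Single libraries lay far from the other 3 of their genotype in 5 of 44 groups of 4 libraries, and chance gives this in about 5% of groups. C48 of chr17.trna84 was 71.4% in WT library 2, from 14 reads, against 94.1% to 98.1% in the other WT libraries. LysTTT 5′ fragments were at 810 CPM (TMM scale) in the second NSun2 -/- library against 352 to 369 in the others. Mature chr12.trna790 was at 8089 CPM in the fourth NSun2 -/- library against 9779 to 9818 in the others. LysTTT 3′ fragments were at 1656 CPM in WT library 1 against 782 to 925 in the other WT libraries. The share of LysTTT fragments ending at 34 with another base was 19.4% in the fourth NSun2 -/- library against 5.27% to 7.16% in the others. The causes were not tested.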

How the results depend on the processing

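C48 of LysCTT stayed lower under every alternative, from −28.9 to −47.7 points. Replicate numbers did not pair the samples (same-number correlations of −0.06 to 0.13 in bisulphite and −0.53 to 0.13 in tRNA-seq data), and with the replicate block (exact sign-flip test, smallest p 0.125) C48 of LysCTT was −36.9 points (p = 0.125) and the difference between isoacceptors −29.1 points (p = 0.25); the block changed no call of cytosines. That difference was −27.9 points with any listed LysTTT gene and −35.9 and −26.4 points with the nearest cytosines or C56 alone subtracted, all chosen after seeing the data, and −21.3 to −29.1 points with a library left out. The smallest p with a library left out was above 0.05 wherever this left 2 or 3 libraries a group for LysTTT. A coverage minimum of 30 reads left no LysTTT value. Called Lys cytosines were 5, but 2 with limma, 2 with 30 reads, and 3 (without WT library 1) to 11 (without the third NSun2 -/- library) with one left out. The 11 calls were 5 lower and 6 higher, whereas all calls in the other settings were lower. LysTTT 5′ fragments were −0.69 with DESeq2, −0.78 at 30 to 36 nt, and −0.89 (without the second NSun2 -/- library) to −0.38 with one left out. Without mismatched reads they were −0.36, and the LysTTT genes tested lay between −0.14 and −0.098. The ratio of the isoacceptors was 0.21 without mismatched reads and 0.22 to 0.65 with one library left out. Lys genes called for 5′ fragments were 0, 1 with DESeq2, and 0 to 5 with a library left out. Genes called in the mature class were 1, but 0 when scaled to all tRNA counts, without a filter, or with counts divided by their common factor (added after seeing the data), 2 without the CCA requirement, and 0 to 1 with one left out.

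Mature LysCTT was −0.51 scaled to all tRNA counts. Mature LysTTT was 0.047 without the CCA requirement, 0.28 with divided counts, and −0.70 to 0.76 with one library left out. On the scale of all tRNA counts chr12.trna790 was −0.20 and chr13.trna1000 −0.76. chr13.trna1000 was also −0.052 without the CCA requirement, −0.072 with divided counts, and −0.34 to 0.38 with one left out. chr13.trna103 was 0.14 with DESeq2, 0.14 without a filter, 0.10 without the CCA requirement, 0.062 with divided counts, and −0.18 to 0.032 with one left out. The Pol III log2 ratio was −0.38 for LysCTT and −0.39 for LysTTT when scaled to all bound genes, and 0.017 and 0.047 against WT library 2 alone. The causes were not tested. Depth limits LysTTT methylation, with at most 29 WT reads at C48.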
